A study of Homo sapiens with 8 samples.

Results

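Peaks of PTBP1 and of IGF2BP2 were examined in the transcripts of 9 RNA-binding proteins that take part in splicing: RBFOX2, MBNL1, MBNL2, QKI, CELF1, TIA1, TIAL1, U2AF2 and KHSRP. Every listed peak whose annotated gene carried one of these names was taken, which gave 2428 of 1843422 peaks in 4 lists and 9 of 19767 gene names. PTBP1 replicates 1 and 2 listed 772 of 600615 and 714 of 538802 peaks in them, and IGF2BP2 replicates 1 and 2 listed 486 of 362700 and 456 of 341305. The series compared RNA bound by PTBP1, a splicing repressor that binds pyrimidine-rich RNA, with RNA bound by IGF2BP2 (IMP2), a KH-domain protein known mostly from mature mRNAs. Both were pulled down with antibodies from A172, an established human glioma line, by enhanced crosslinking and immunoprecipitation (eCLIP), in which proteins are crosslinked to RNA and the bound fragments are sequenced beside an input.

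All groups shared one treatment, 500 µM 4-thiouridine for 3 h and 2 exposures to 400 mJ/cm2 of 365 nm light, and no genotype differed. The groups were PTBP1 immunoprecipitation (IP), IGF2BP2 IP and an input of each, with 2 libraries each. The inputs, 2% of each lysate, entered here only through the IP to input values of the peaks. Membrane pieces of about 55 to 130 kDa were cut for PTBP1 and of about 65 to 140 kDa for IGF2BP2. The labels leave it unsaid whether replicates were separate cultures, and the p-values speak only of the spread among these libraries. A172 is 1 cell line, and in bulk lysate fewer cells with a transcript and less transcript per cell cannot be told apart. Of the markers checked for a mesenchymal glioma line, VIM held 29 and 20 PTBP1 peaks and 8 and 8 IGF2BP2 peaks and CD44 held 101 and 108 PTBP1 peaks and 85 and 69 IGF2BP2 peaks, while the neuronal SNAP25 held 3 and 1 PTBP1 peaks and 8 and 0 IGF2BP2 peaks. The neuronal markers RBFOX3 and SYT1 also held peaks in every list (59 to 183 and 19 to 130), and a peak is no expression level.

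The 9 proteins divide by role. RBFOX2, MBNL1, MBNL2, QKI and CELF1 set exon choice in a tissue-dependent way, with MBNL proteins and CELF1 acting in opposite directions on many exons of developing heart and muscle. TIA1 and its paralogue TIAL1 bind U-rich RNA behind 5′ splice sites and also form stress granules. U2AF2 is the large U2AF subunit, which reads the pyrimidine tract of 3′ splice sites in nearly all introns, and KHSRP is a KH-domain protein of splicing and of AU-rich mRNA decay. Many RNA-binding proteins of this kind are known to be regulated through alternative exons of their own transcripts, and QKI is a known regulator of glial RNA.

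RefSeq sequence (GRCh38.p14) was at hand only for windows of 300 nt around gene starts, from 250 nt before to 50 nt after, for 7 of 9 members. Shown are their PTBP1 regions that both replicates listed on the gene's strand, with a peak of at least 40 nt inside a window. The letters are set beside read numbers, and none of these regions met the enrichment bar given below in both replicates. They were chosen after their values were seen. Capitals mark TCTT, CTTT or TTCT, pyrimidine motifs known of PTBP1, read on the transcript's strand only, with overlaps joined. The first is the intronic CELF1 region chr11:47494578-47494676 (minus strand), the second the central 30 nt of the intronic MBNL1 peak chr3:152269004-152269056 (plus strand), and the third the intronic MBNL1 region chr3:152298803-152298912 (plus strand).
CELF1, 99 nt: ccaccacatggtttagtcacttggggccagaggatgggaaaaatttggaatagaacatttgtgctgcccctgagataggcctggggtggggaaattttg
MBNL1, 30 nt: TCTTggaatcatgactcccacaatgccttg
MBNL1, 110 nt: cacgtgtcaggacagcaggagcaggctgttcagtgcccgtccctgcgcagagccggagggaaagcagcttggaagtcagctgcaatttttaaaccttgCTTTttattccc

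The CELF1 sequence held 0 of these motifs and 42.4% pyrimidines, and 55.5% of 35116 RefSeq promoter stretches of the same length and place held at least 1. The short MBNL1 sequence held 1 motif and 60.0% pyrimidines (22.3% of stretches held a motif), and the long one held 1 motif and 50.0% pyrimidines (62.0% of stretches). The CELF1 region had 13 IP to 3 input reads in PTBP1 replicate 1 and 21 to 2 in replicate 2. The short MBNL1 region had 27 to 2 and 20 to 4, and peaks on the opposite strand overlapped it in both lists. This place also lies in the antisense gene MBNL1-AS1, so its assignment is uncertain. The long MBNL1 region showed no enrichment, with log2 IP over input of -1.17 and 0.07. These are descriptions of letters in 3 windows, and the sequences of the stronger regions below were not used here.

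U2AF2 and KHSRP, the shortest of the 9 genes, were the densest in peaks. The order of peaks per kilobase of gene was U2AF2, KHSRP, CELF1, TIAL1, TIA1, MBNL2, MBNL1, RBFOX2 and QKI for both proteins. U2AF2 held 4.85 ± 0.11 PTBP1 peaks per kb and 4.85 ± 0.40 IGF2BP2 peaks per kb (SD, n = 2), and QKI held 0.229 ± 0.039 PTBP1 and 0.113 ± 0.0043 IGF2BP2 peaks per kb (SD, n = 2). KHSRP, next to U2AF2 in rank, held 2.69 ± 0.18 PTBP1 peaks and 1.92 ± 0.060 IGF2BP2 peaks per kb (SD, n = 2). For PTBP1 the ranges of CELF1, TIAL1, TIA1 and MBNL2 overlapped from each gene to the next, so the order among these 4 is not resolved. For IGF2BP2 no neighbours overlapped in range, but the SD intervals of RBFOX2 and QKI did, as did those of MBNL1 and RBFOX2 for PTBP1.

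**Figure D1:**
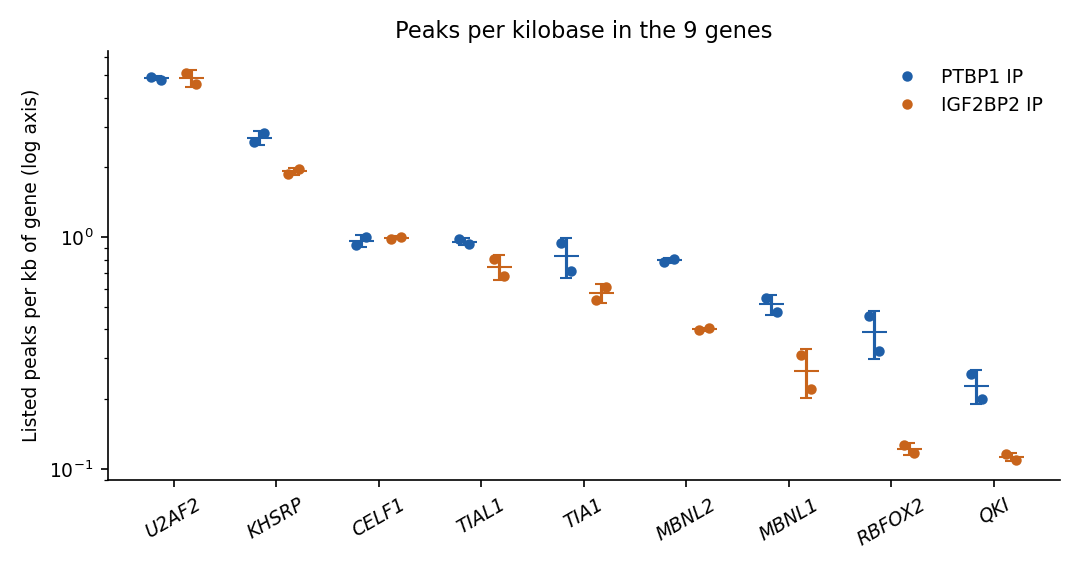
Listed peaks per kilobase of gene (log axis) in the 9 genes, PTBP1 left and IGF2BP2 right of each pair, with 1 point per library, and the mean and SD of 2 libraries as bars. Both proteins gave U2AF2 about 4.85 peaks per kb and fell along the same order to QKI.

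Set against the length of each list, RBFOX2 was denser in PTBP1 peaks, while CELF1 and U2AF2 were denser in IGF2BP2 peaks. The other 6 genes did not pass the test. Density was the log2 of a gene's peaks (plus 0.5) per 10000 peaks of its list, tested with limma over 15145 genes of at least 10 peaks, and all 9 members passed this filter. Among all tested genes 12.7% were called higher in PTBP1, 12.3% higher in IGF2BP2 and 25% in either direction (Benjamini-Hochberg adjusted p under 0.05). Against that, 1 of 9 members was higher in PTBP1 and 2 of 9 higher in IGF2BP2, so the share called is near that of genes at large. The members' median difference was -0.18 and that of all tested genes -0.01.

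RBFOX2 held 132 and 94 PTBP1 peaks in replicates 1 and 2, against 37 and 34 IGF2BP2 peaks. Both PTBP1 lists stood above both IGF2BP2 lists, and the log2 density was higher by 0.94 ± 0.15 (SE, limma adjusted p = 0.0066). Many RBFOX2 peaks with recovered reads were shallow: such peaks, 73 and 53 in the PTBP1 lists, had a median of 6 IP reads in each. Another 57 and 39 of its PTBP1 peaks had a −log10 p of 0 and gave no read number. With only peaks of 10 or more IP reads, RBFOX2 had 25 and 16 PTBP1 peaks against 2 and 1 IGF2BP2 peaks, with a difference of 1.12 that missed the threshold (limma adjusted p = 0.058). Among enriched peaks only, 3 and 1 of PTBP1 against 5 and 2 of IGF2BP2, the difference was 0.29 (limma adjusted p = 0.76).

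CELF1 held 92 and 100 PTBP1 peaks and 98 and 100 IGF2BP2 peaks. Equal numbers in lists of unequal length gave a density lower in PTBP1, by -0.74 ± 0.13 on the log2 scale (SE, limma adjusted p = 0.0090). U2AF2 held 97 and 94 PTBP1 peaks and 101 and 90 IGF2BP2 peaks, with a difference of -0.69 ± 0.11 (SE, limma adjusted p = 0.0063). For CELF1 the call was lost among peaks with 10 or more IP reads (-0.52, limma adjusted p = 0.078). Among enriched peaks only, the estimates of CELF1 (0.78, adjusted p = 0.18) and U2AF2 (0.67, adjusted p = 0.22) had the opposite sign in limma, without passing. In that setting 5 members could be tested and MBNL1 passed for PTBP1 (1.90, limma adjusted p = 0.045), against 19.8% of 2521 genes called for PTBP1 and 19.1% for IGF2BP2. The U2AF2 call was lost when peaks overlapped by a peak on the other strand were left out (-0.22, limma adjusted p = 0.35).

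The muscleblind genes and QKI leaned to PTBP1 without passing. MBNL2 held 197 and 204 PTBP1 peaks against 100 and 102 IGF2BP2 peaks (0.29, limma adjusted p = 0.090), MBNL1 122 and 106 PTBP1 peaks against 69 and 49 IGF2BP2 peaks (0.27, limma adjusted p = 0.23), and QKI 42 and 33 PTBP1 peaks against 19 and 18 IGF2BP2 peaks (0.30, limma adjusted p = 0.29). With the replicate number as a block MBNL2 passed (limma adjusted p = 0.045). TIA1 held 37 and 28 PTBP1 peaks against 21 and 24 IGF2BP2 peaks (-0.18, limma adjusted p = 0.55). TIAL1 held 23 and 22 PTBP1 peaks against 19 and 16 IGF2BP2 peaks (-0.33, limma adjusted p = 0.30), and KHSRP 30 and 33 against 22 and 23 in the same order (-0.22, limma adjusted p = 0.46).

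Among peaks with 10 or more recovered IP reads, MBNL2 passed for PTBP1 and KHSRP and U2AF2 passed for IGF2BP2. At this depth limma tested 8080 genes and called 34.2% higher in PTBP1 and 16.1% higher in IGF2BP2, and the median difference over all of them was 0.65. MBNL2 held 99 and 93 such PTBP1 peaks against 14 and 11 IGF2BP2 peaks (0.62, limma adjusted p = 0.031). KHSRP held 27 and 31 against 15 and 12 in the same order (-1.20, limma adjusted p = 0.013), and U2AF2 94 and 87 against 34 and 30 (-0.79, limma adjusted p = 0.0078). QKI held 12 and 6 deep PTBP1 peaks and 0 and 0 of IGF2BP2, and TIA1 held 9 and 6 of PTBP1 and 0 and 0 of IGF2BP2, so both entered this fit through PTBP1 alone and no difference is read from it. Of the IGF2BP2 peaks of TIA1, 8 of 21 and 7 of 24 gave no read number, and of those of QKI 1 of 19 and 1 of 18. The depth of these peaks is unknown. IGF2BP2 lists were shallower at large, with a median of 4 IP reads per peak with recovered reads in each, and PTBP1 lists a median of 12 and 9. The part of depth in these differences was not tested.

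**Figure D2:**
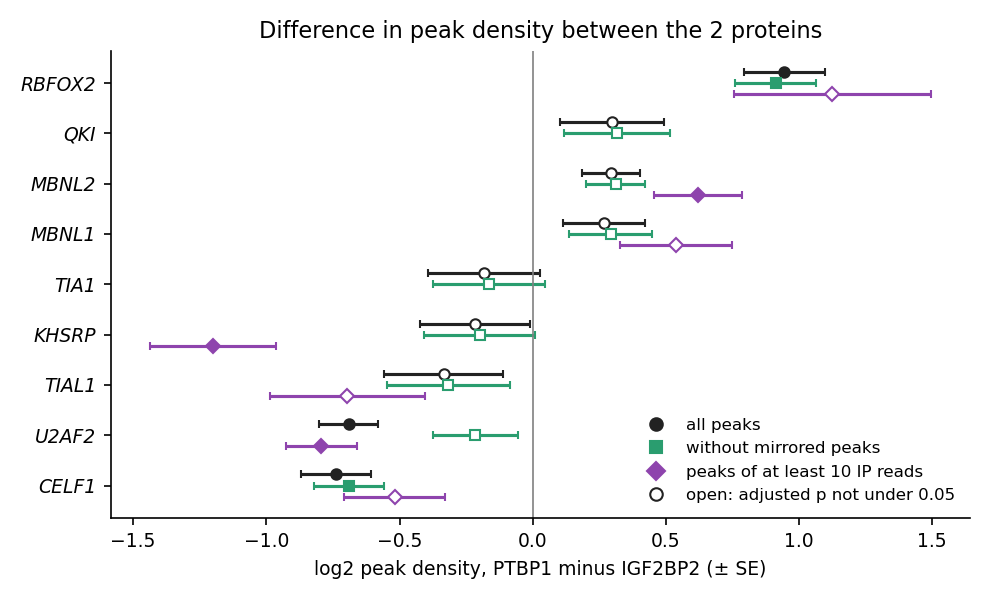
Difference in log2 peak density, PTBP1 minus IGF2BP2, with SE bars, for each gene. Symbols give all peaks, peaks without those mirrored on the other strand, and peaks of at least 10 recovered IP reads. The last is not drawn for QKI and TIA1, which had no such IGF2BP2 peak. Filled symbols have a limma adjusted p under 0.05: with all peaks RBFOX2 lies at 0.94 and CELF1 at -0.74, and with deep peaks KHSRP lies at -1.20.

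PTBP1 peaks of these genes lay in coding sequence more often and IGF2BP2 peaks in 3′ UTRs more often, as the files annotate them. Coding sequence held 11.1% ± 0.63 of the members' PTBP1 peaks and 6.90% ± 0.14 of their IGF2BP2 peaks (SD, n = 2), and 3′ UTRs held 4.85% ± 0.27 of PTBP1 peaks and 11.3% ± 0.094 of IGF2BP2 peaks (SD, n = 2). Introns held 82.6% ± 0.085 of PTBP1 peaks and 79.5% ± 0.13 of IGF2BP2 peaks (SD, n = 2). In each of the 3 classes the 2 libraries of one protein lay apart from those of the other, and the exact two-sided permutation p was 0.333, the smallest that 2 against 2 libraries can give. Over all peaks of the lists, coding sequence held 13.4% for PTBP1 and 9.21% for IGF2BP2, 3′ UTRs 3.21% (PTBP1) and 6.70% (IGF2BP2), and introns 73.8% (PTBP1) and 74.5% (IGF2BP2). Among enriched member peaks the 3′ UTR share was 2.59% ± 0.38 for PTBP1 and 27.4% ± 7.0 for IGF2BP2 (SD, n = 2), against 2.44% and 15.1% of all enriched peaks of the same proteins. The IGF2BP2 share rests on 11 of 34 and 9 of 40 peaks. CELF1 alone held 6 and 5 of these, and MBNL1, MBNL2, TIA1 and TIAL1 held none. The coding share of enriched member peaks was 10.1% ± 2.2 for PTBP1 and 1.25% ± 1.8 for IGF2BP2 (SD, n = 2), against 26.6% and 5.54% of all enriched peaks.

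The 9 genes differed widely in which part was covered. MBNL2 peaks were almost all intronic, 195 of 197 and 201 of 204 for PTBP1 and 99 of 100 and 100 of 102 for IGF2BP2, and MBNL1 was alike, with 120 of 122 and 105 of 106 for PTBP1 against 64 of 69 and 47 of 49 for IGF2BP2. KHSRP stood at the other end. Its PTBP1 peaks lay in coding sequence in 24 of 30 and 24 of 33 cases and in introns in 0 and 2, whereas its IGF2BP2 peaks divided into 10 and 9 in coding sequence, 7 and 9 in the 3′ UTR and 4 and 4 in introns. U2AF2 held 35 and 30 coding-sequence peaks of PTBP1 against 17 and 12 of IGF2BP2. CELF1 held 19 and 17 PTBP1 peaks in its 3′ UTR against 24 and 25 IGF2BP2 peaks, the largest 3′ UTR numbers of the 9 genes. TIAL1 was the gene with the most 5′ UTR peaks, 4 and 4 for PTBP1 and 3 and 4 for IGF2BP2.

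**Figure D3:**
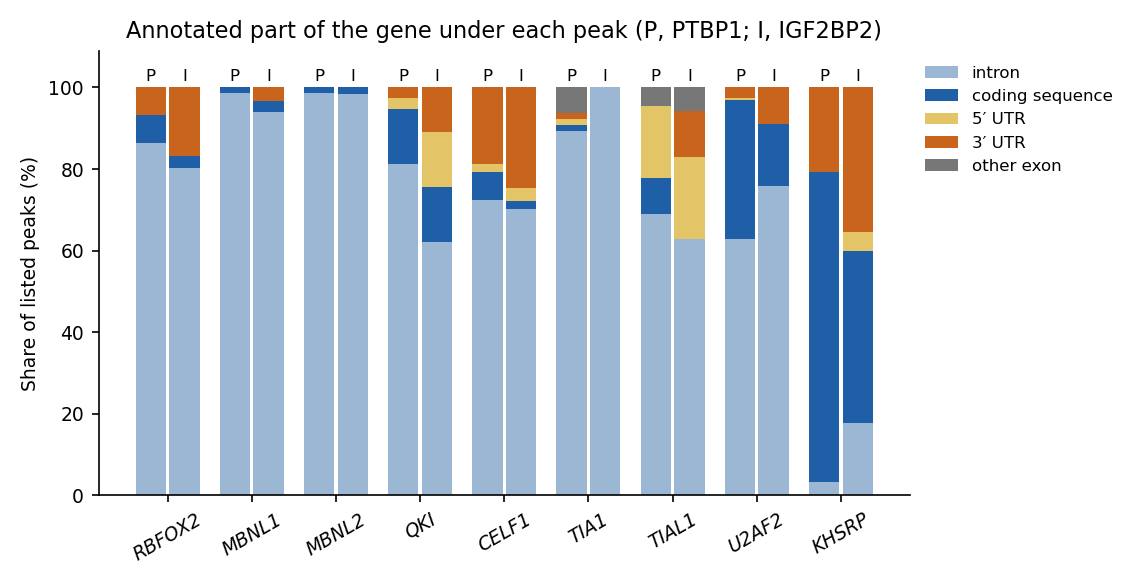
Share of the listed peaks of both replicates together in each annotated part of the gene, PTBP1 (P) left and IGF2BP2 (I) right for each gene. MBNL1 and MBNL2 are nearly all intron, and KHSRP is mostly coding sequence for PTBP1 (24 of 30 and 24 of 33 peaks).

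A peak was called enriched when its log2 IP over input and its −log10 p were both at least 3. By this bar 5.57% and 4.90% of the members' PTBP1 peaks were enriched, against 6.996% and 8.77% of their IGF2BP2 peaks. The whole lists had 2.94% and 2.84% for PTBP1 and 9.2% and 9.36% for IGF2BP2. At this bar the members' share lay above that of the list in both PTBP1 libraries and below it in both IGF2BP2 libraries. Between the proteins the members differed by -2.65 percentage points (PTBP1 minus IGF2BP2, exact two-sided permutation p = 0.333, the smallest possible). A constant enters both the log2 value and the −log10 p, and was -0.30 and -0.08 for the PTBP1 libraries and 1.74 and 1.90 for the IGF2BP2 libraries. The same ratio of reads therefore gave a higher log2 in the IGF2BP2 libraries. The part of this constant in the enriched shares was not tested.

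Of 463 regions that both PTBP1 replicates listed in these genes, 18 (3.89%) were enriched in both, against 14 of 233 (6.01%) for IGF2BP2. Over all genes the shares were 2.28% for PTBP1 and 5.94% for IGF2BP2. The PTBP1 regions were 15 intronic, 1 coding, 1 in the 5′ UTR and 1 in a further exon, and the IGF2BP2 regions were 8 intronic and 6 in 3′ UTRs. They fell in 7 of 9 genes for PTBP1 and 6 of 9 for IGF2BP2. Among genes with at least 5 regions, 25.6% held an enriched one for PTBP1 and 42.9% for IGF2BP2, but such genes had a median of 14 and 11 regions and the members 54 and 17. Raising the bar to a log2 of 4 and a −log10 p of 5 left 3 PTBP1 regions and 1 IGF2BP2 region, which is 0.648% of the members' PTBP1 regions, near the 0.59% over all genes, and 0.429% of their IGF2BP2 regions, against 1.31% over all genes.

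CELF1, a CUG-binding splicing and mRNA decay factor, carried the PTBP1 region with the highest −log10 p of the set. It lies in an intron at chr11:47541590-47541683 (minus strand, hg38), 23.9 kb from the gene start. PTBP1 replicate 1 had 349 IP to 4 input reads there and replicate 2 had 279 to 6, with log2 values of 6.14 and 5.46 and −log10 p of 82.4 and 70.6. No IGF2BP2 region overlapped it. Another 2 enriched PTBP1 regions of CELF1 lay in the 5′ UTR (70 to 6 and 40 to 3 reads) and in coding sequence (52 to 5 and 43 to 5). The 3 enriched IGF2BP2 regions of CELF1 lay apart from these, all in the 3′ UTR. The strongest, chr11:47469340-47469391, had 22 IP to 2 input reads in IGF2BP2 replicate 1 and 21 to 3 in replicate 2, with −log10 p of 11.8 and 11.2. A PTBP1 region that was not enriched in both replicates overlapped 2 of the 3.

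RBFOX2 and QKI showed the same division in fewer regions. The only enriched PTBP1 region of RBFOX2 was intronic, at chr22:35746201-35746257 (minus strand), with 20 IP to 1 input reads and 18 to 1, while both enriched IGF2BP2 regions were in its 3′ UTR. The stronger of those, chr22:35739238-35739294, had 13 IP to 4 input reads and 9 to 2. In QKI the PTBP1 region was intronic, chr6:163525312-163525450 (plus strand, 23 to 2 and 19 to 1 reads), and the IGF2BP2 region was in the 3′ UTR, chr6:163572714-163572749 (6 to 1 and 7 to 2). The IGF2BP2 read numbers are small, so these regions are near the bar. The deepest PTBP1 region of RBFOX2 missed it: at chr22:35838530-35838665, with 201 to 20 and 122 to 16 reads, log2 was 3.03 in replicate 1 and 2.85 in replicate 2. That place also holds the ribosomal-protein pseudogene RPL41P3 in the RefSeq table, whose reads could be shared with copies elsewhere, so its assignment to RBFOX2 is uncertain.

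In MBNL1 and MBNL2 the regions enriched in both replicates were all intronic, for both proteins. MBNL2 also had a coding peak that met the bar in replicate 2 of each protein and missed it in replicate 1. MBNL1 had its strongest PTBP1 region at chr3:152331097-152331228 (plus strand), with 70 IP to 1 input reads and 51 to 2, overlapped by an IGF2BP2 region that was not enriched in both replicates. The other 2 enriched PTBP1 regions of MBNL1 lie on opposite strands over the pseudogene TMEM14EP (20 to 1 and 22 to 2 reads on the minus strand, 19 to 1 and 16 to 1 on the plus strand), so their assignment is uncertain. For IGF2BP2 the strongest MBNL1 region was chr3:152309004-152309065, with 9 to 1 and 11 to 2 reads. MBNL2 had the most enriched regions, 5 for each protein. Its strongest PTBP1 region, chr13:97286869-97286951 (plus strand), had 51 to 2 and 40 to 4 reads, and its strongest IGF2BP2 region, chr13:97264033-97264085, had 14 to 5 and 12 to 3. Both places, and 3 of 5 PTBP1 and 4 of 5 IGF2BP2 regions of MBNL2 in all, also lie in long noncoding RNA genes of the RefSeq table. Of the IGF2BP2 regions, 2 abut each other, 4 and 17 nt long, with the same reads (12 to 1 and 6 to 1), and may count 1 site 2 times.

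The paralogues TIAL1 and TIA1 held no IGF2BP2 region enriched in both replicates. TIAL1 had 2 for PTBP1. The stronger lay in an intron at chr10:119590734-119590818 (minus strand), 6.19 kb from the gene start, with 57 IP to 1 input reads and 43 to 1 (log2 5.53 and 5.35). The other, chr10:119575682-119575787, with 20 to 1 and 26 to 1 reads, was annotated as an exon outside coding sequence and UTRs. TIA1 had a PTBP1 region of the same annotation at chr2:70216891-70216997 (minus strand). It had 73 to 3 reads in replicate 1, a log2 of 4.302, and 38 to 7 in replicate 2, a log2 of 2.36, so it met the bar in replicate 1 and missed it in replicate 2. It was picked out after its values were seen, as the TIA1 region with the most IP reads in PTBP1 replicate 2. In replicate 1 the highest number of IP reads of a TIA1 peak was 80.

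KHSRP had many reads and no region enriched in both replicates. The median KHSRP peak with recovered reads had 87 and 58 IP reads in the PTBP1 libraries and 20 and 15 IP reads in the IGF2BP2 libraries. The deepest region, chosen after seeing its values, lay in coding sequence at chr19:6417992-6418078 (minus strand), with 155 IP to 80 input reads and 149 to 94 for PTBP1, and log2 of 0.65 and 0.59. The deepest IGF2BP2 region was in the 3′ UTR at chr19:6413946-6414050, with 93 to 68 and 73 to 71 reads and log2 of 2.19 and 1.95. Another 3′ UTR region of IGF2BP2, chr19:6414303-6414332, had 25 to 11 and 15 to 3 reads. It narrowly missed the bar in replicate 1 (log2 2.92) and met it in replicate 2 (log2 4.23).

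**Figure D4:**
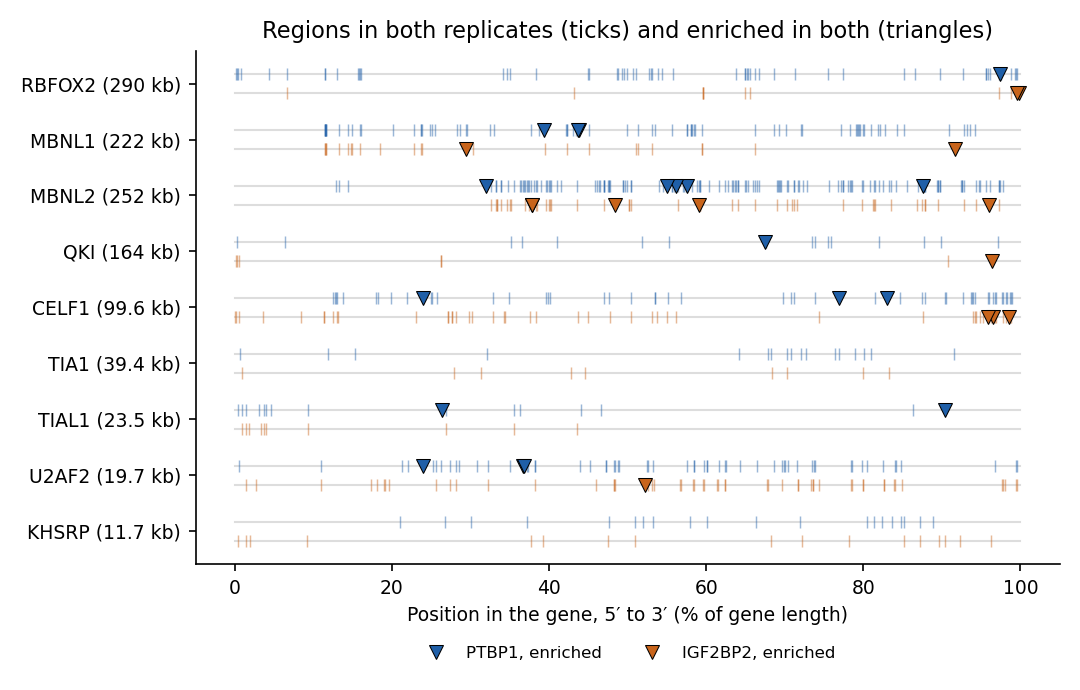
Position of each region listed in both replicates along its gene, 5′ to 3′ as a percentage of gene length, PTBP1 above and IGF2BP2 below for each gene. Ticks are regions and triangles the 18 PTBP1 and 14 IGF2BP2 regions enriched in both replicates, with those of IGF2BP2 in RBFOX2, QKI and CELF1 at the 3′ end.

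U2AF2 held 3 enriched PTBP1 regions, of which 2 are one place read on both strands. The plus-strand region chr19:55662195-55662315, on the gene's strand, had 400 IP to 31 input reads in PTBP1 replicate 1 and 350 to 19 in replicate 2. The minus-strand region chr19:55662221-55662327 had 397 to 31 and 351 to 19. No other RefSeq gene overlaps either. The third, chr19:55659715-55659774, lay on the plus strand only, with 152 to 9 and 107 to 5 reads. The enriched IGF2BP2 region, chr19:55665243-55665380 (13 to 4 and 30 to 10 reads), was also mirrored on the other strand.

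Such mirrored peaks made up 50.8% of the U2AF2 peaks, more than in 90.5% of 9332 genes with at least 40 peaks. Over all 9 genes the mirrored share was 8.33% ± 0.68 for PTBP1 and 14.1% ± 1.6 for IGF2BP2 (SD, n = 2), against 11.5% and 10.7% in the whole lists. Peaks on the strand opposite to U2AF2 numbered 43 and 37 in the PTBP1 lists and 39 and 38 in those of IGF2BP2. Overlapping pairs had IP reads within 10% of each other in 8 of 25 and 13 of 20 cases in the PTBP1 lists and in 15 of 25 and 14 of 24 in the IGF2BP2 lists. The strand of U2AF2 reads is thus not resolved at these places. MBNL2, QKI, TIA1, TIAL1 and KHSRP had no mirrored peak.

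**Figure D5:**
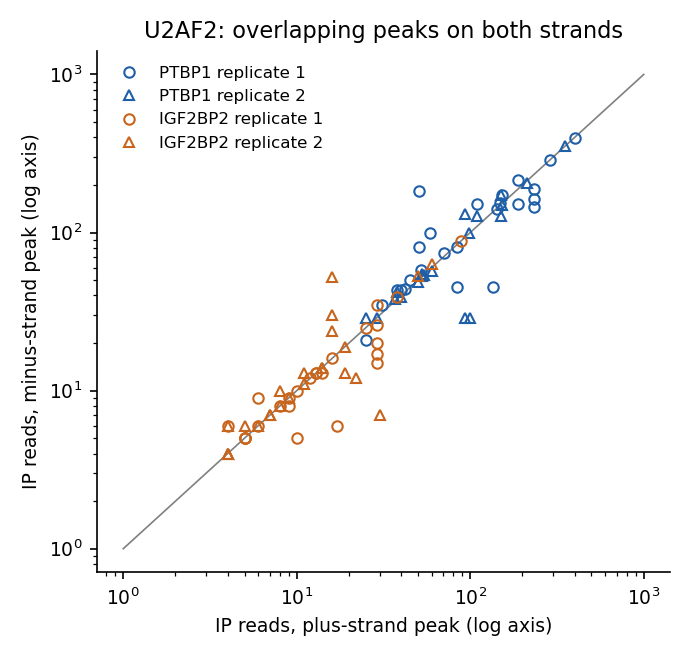
IP reads of overlapping plus-strand and minus-strand U2AF2 peaks in the same list (log axes), 1 point per pair, PTBP1 in blue and IGF2BP2 in orange, with the line of equal reads. Many pairs lie near the line, up to 400 and 397 reads, and others lie far from it, such as 51 and 183 or 100 and 29.

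Peaks of these genes were found again in the other replicate in 68.7% and 71.3% of cases for PTBP1 and 52.1% and 57.7% for IGF2BP2, against 55.6% and 61.5% of all PTBP1 peaks and 48.2% and 51.6% of all IGF2BP2 peaks. KHSRP peaks recurred in 29 of 30 and 25 of 33 cases for PTBP1 and 17 of 22 and 20 of 23 for IGF2BP2. RBFOX2 peaks of PTBP1 recurred in 63 of 132 and 62 of 94 cases, and those of IGF2BP2 in 12 of 37 and 12 of 34.

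Where both proteins had regions, they overlapped to unequal extents. An IGF2BP2 region overlapped 117 of 463 PTBP1 regions of these genes (25.3%), and a PTBP1 region overlapped 121 of 233 IGF2BP2 regions (51.9%), against 19.9% of PTBP1 and 39.6% of IGF2BP2 regions over all genes. In QKI the overlap was 0 of 17 PTBP1 and 0 of 7 IGF2BP2 regions. In TIAL1 it was 8 of 16 PTBP1 and 8 of 10 IGF2BP2 regions, and in U2AF2 29 of 62 PTBP1 and 32 of 54 IGF2BP2 regions. Regions were not matched for length or depth in this comparison.

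Among 46 other genes of splicing regulation, 44 were tested and 3 were denser in PTBP1 peaks and 14 in IGF2BP2 peaks, with a median difference of -0.41. Over all tested genes 12.7% and 12.3% were called in the same order, with a median of -0.01. Among enriched peaks only 16 of these genes could be tested, and 7 were denser in PTBP1 and 2 in IGF2BP2 (median 1.39). A gene could enter this smaller set through 1 protein alone. Whether these 16 leaned the same way with all peaks was not examined. All genes of that setting had 19.8% and 19.1% called and a median of 0.049. With peaks of 10 or more IP reads, 6 and 5 of 33 passed (median 0.22). That median lay below the 0.65 of all genes in that setting, of which 34.2% and 16.1% were called. On the PTBP1 side were RBM20, a cardiac splicing regulator, at 1.20 (42 and 42 PTBP1 peaks against 12 and 10 IGF2BP2 peaks), RBFOX3, a paralogue of RBFOX2, at 0.68 (183 and 170 PTBP1 peaks against 78 and 59), and RALY, an hnRNP-like protein, at 0.56 (104 and 95 PTBP1 peaks against 42 and 41). Among the genes past the threshold, the largest differences to IGF2BP2 were those of SRRM4, a neuronal microexon regulator, at -2.17 (3 and 2 PTBP1 peaks against 10 and 6 IGF2BP2 peaks), RBM39, a U2AF2-related factor, at -1.50 (20 and 19 PTBP1 peaks against 37 and 32), and RBFOX1, a further RBFOX2 paralogue, at -1.43 (26 and 20 PTBP1 peaks against 41 and 36). The 3 RBFOX genes thus lay on different sides, RBFOX2 and RBFOX3 with PTBP1 and RBFOX1 with IGF2BP2, each past the limma threshold.

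For each member the tested gene with the nearest pattern was found by the Euclidean distance of log2 densities over the 4 lists. RBFOX2 was nearest to EFNA5 (distance 0.19, with 128 and 96 PTBP1 peaks and 37 and 30 IGF2BP2 peaks), and TIAL1 had the closest match of all, UBE2Q2 (distance 0.066). The others were MBNL1 with MCF2L, MBNL2 with BANP, QKI with BRIP1, CELF1 with SLCO4A1, TIA1 with COL4A2-AS1, U2AF2 with D2HGDH and KHSRP with TAF2.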

How the data were processed

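The analysis began from peak lists deposited per IP library. HISAT2 and hg38 are named in the submitters' processing notes. For the peak caller and annotation, the name is not given in the sources used here. Per the file headers each line gives strand, gene, transcript region and an overlap length. The authors deposited a −log10 p per peak, from 0 to 400, and a log2 value that holds the log2 ratio of IP to input reads plus a constant per chromosome. Reads were recovered from both (tolerance 1% on the −log10 p) for 98.63% and 98.37% of eligible PTBP1 peaks and 99.49% and 99.52% of IGF2BP2 peaks, and chromosomes were put on one scale. That the divisor is the input was read from the values. Peaks with a deposited −log10 p of 0 gave no reads (25.24%, 22.27%, 11.53% and 10.81% of the lists).

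Overlapping same-strand peaks (1 nt) of both replicates formed regions, enriched where the best peak of each replicate was. Density was compared in limma 3.58.1 with a trend (R 4.3.3) and shares with exact permutation tests. Read recovery, joining and the density fit were tested on simulated data. Alternatives varied the pseudocount, scaling, filters, enrichment bar, overlap and libraries. Gene extents and sequences are RefSeq, GRCh38.p14, matched for 9 of 9 members. Members, lists and tests were chosen with earlier results of these data known. All members, the best region per member and protein, the 3 largest pathway genes each way and the nearest gene were named. Distances to exons and motifs in all regions were not computed, as no genome was used here.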

Additional observations from a re-analysis of the deposited data

Results flagged for a closer look

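Enriched shares of the members lay on opposite sides of the share of the whole list in the 2 proteins. For the 9 genes together the share minus that of the list was 2.63 and 2.06 points in PTBP1 replicates 1 and 2, and -2.20 and -0.585 points in those of IGF2BP2, a difference of 3.74 points. With PTBP1 before IGF2BP2 in each pair, CELF1 (2.50 and 4.16 against -3.08 and -1.36, a difference of 5.54 points), MBNL1 (5.26 and 1.87 against -0.501 and -5.28, 6.45 points), U2AF2 (2.22 and 5.67 against -1.28 and -0.468, 4.81 points) and TIAL1 (10.1 and 15.3 against -9.20 and -3.11, 18.9 points) showed the same. The TIAL1 value rests on 3 of 23 and 4 of 22 enriched PTBP1 peaks and 0 of 19 and 1 of 16 of IGF2BP2. These differences were not tested. RBFOX2, MBNL2, QKI, TIA1 and KHSRP did not lie on opposite sides in this way. RBFOX2 was below the list in both PTBP1 libraries (-0.665 and -1.78 points), and KHSRP was below it in every library. The share of all genes with this pattern was not computed. At the stricter bar (log2 of 4, −log10 p of 5) the opposite sides did not hold for peaks. There the members had 1.65% in IGF2BP2 replicate 1 against 1.62% of the list. For regions enriched in both replicates they did not hold at the bar of 3, with 6.01% of member regions against 5.94% of all for IGF2BP2. At the stricter bar the members' regions had 0.648% against 0.59% of all for PTBP1 and 0.429% against 1.31% for IGF2BP2. These stricter shares rest on 3 PTBP1 regions and 1 IGF2BP2 region. Without U2AF2 the members' enriched share was 5.63% and 4.36% for PTBP1 and 6.75% and 8.74% for IGF2BP2, and without mirrored peaks 5.11% and 4.41% for PTBP1 against 6.55% and 8.31% for IGF2BP2, where the lists had 2.87% and 2.77% for PTBP1 and 9.003% and 9.18% for IGF2BP2.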

How the results depend on the processing

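The number of members denser in PTBP1 (1) was 2 by nucleotides covered and with the replicate block, 3 with peaks of at least 10 IP reads (MBNL2, and QKI and TIA1 against IGF2BP2 lists at 0), and 1 to 2 when 1 library was left out. MBNL1 passed without IGF2BP2 replicate 1 (0.47, limma adjusted p = 0.011; 0.067 without IGF2BP2 replicate 2), and MBNL2 without IGF2BP2 replicate 2 (0.35, limma adjusted p = 0.022). The number denser in IGF2BP2 (2) was 0 among enriched peaks, where 5 members could be tested, 1 without mirrored peaks, and 2 in each leave-one-out fit. Reversed signs were those of CELF1 (0.78) and U2AF2 (0.67) among enriched peaks and TIA1 (1.69, a value set by the pseudocount) among deep peaks. KHSRP passed by nucleotides (-1.41) and with abutting peaks joined (-0.74), an alternative added after seeing the data, as were those of the enriched share without U2AF2 and without mirrored peaks. In the member lists 56 of 79 and 62 of 84 abutting IGF2BP2 pairs had equal IP reads, against 6 of 77 and 4 of 60 for PTBP1. Same-numbered libraries did not deviate together (r = -0.0016 over genes).

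Of 15145 genes, 1922 were called for PTBP1 and 1860 for IGF2BP2, against 3233 and 3156 by nucleotides, 498 and 482 of 2521 among enriched peaks, 3206 and 2730 of 14427 with abutting peaks joined, 2765 and 1304 of 8080 with deep peaks, 2472 and 2291 with the replicate block, and 1114 to 3422 and 1153 to 2966 with 1 library left out. Enriched regions fell to 3 (PTBP1) and 1 (IGF2BP2) at the stricter bar. Overlap of at least 50% of the shorter peak gave found-again shares of 66.32% and 69.05% in PTBP1, and deep peaks 85.48% and 86.71% in PTBP1 and 79.07% and 97.33% in IGF2BP2. The enriched share differed by -0.15 points at the stricter bar (exact permutation p = 0.667) and -1.77 on the deposited scale (exact permutation p = 1), and -3.54 to -1.76 with 1 library left out; intron, coding and 3′ UTR differences kept their sign in every setting run. Causes were not tested. Regions and found-again shares need both replicates, so no library could be left out. QKI and TIA1 had no IGF2BP2 peak with 10 or more recovered IP reads, and the depth of peaks without a read number is unknown.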
